A study of Mus musculus with 4 samples.

Results

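The interleukin 1 system and the inflammasome core were described here through 9 genes, taken by name from the 18193 genes with a probe set on the arrays. They were the ligands Il1a and Il1b, the antagonist Il1rn, the receptors Il1r1, Il1r2 and Il1rap, and Nlrp3, Pycard and Casp1 of the inflammasome. Every probe set annotated to exactly 1 of these symbols was used, which gave 18 of the 34945 probe sets with a single symbol. The values were signals of 4 sorted mouse cell populations, each on 1 Affymetrix array. Granulocytes were bone marrow cells with bright Gr-1 staining and high granularity, 99.4% pure by morphology. Haematopoietic progenitor cells (HPC) were sorted as lineage-negative, c-Kit+, Sca-1- cells. Stem cells were lineage-negative, c-Kit+ and Sca-1+, and were divided by CD34 into long-term repopulating cells without it (LT-HSC) and short-term repopulating cells with it (ST-HSC). RNA came from 50 to 200 cells of each type and went through 2 rounds of amplification. Genotype, strain, sex and age were not given in the sources used here, and no cells were labelled as treated. The question was which parts of the interleukin 1 system each population carried as transcripts.

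Interleukin 1 is an alarm cytokine of the innate immune system. Il1b is made as an inactive precursor that caspase 1 cuts after the sensor NLRP3 and the adaptor ASC (the product of Pycard) have assembled an inflammasome, while the product of Il1a is already active as a precursor. Both ligands signal through the type I receptor Il1r1 with its partner Il1rap. The type II receptor Il1r2 binds ligand without signalling, as a decoy, and the product of Il1rn occupies the type I receptor without activating it. Neutrophils are known sources of the ligand, the decoy and the antagonist, and haematopoietic stem cells are known to respond to interleukin 1 with myeloid output.

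Granulocytes had the largest signals of Il1b, Il1rn, Il1r2, Nlrp3 and, by only 1.68-fold over HPC, Pycard. They had Il1r1 under the level that could be measured. By the smallest fold over another array, Il1b was 169-fold higher in granulocytes, Il1r2 26.0-fold, Il1rn 23.2-fold and Nlrp3 5.75-fold. Il1r1 was at least 10.8-fold lower in granulocytes than on each other array. Pycard, Casp1 and Il1rap were measured on all 4 arrays with smaller differences, and Il1a was under the floor on all 4. Each population had 1 array, so no difference has a replicate check and no test was possible.

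The promoters of the neighbouring ligand genes and of the neighbouring receptor genes are shown because the members of each pair had unlike signals. Each window runs from 250 bases before to 50 bases after the RefSeq start site on the mouse build GRCm38.p6, 5′ to 3′ on the gene's strand, with matches to the searched motifs in capitals. The Il1b window is chr2:129371090-129371389 on the minus strand, and the Il1a window is chr2:129309923-129310222 on the minus strand. The Il1r2 window is chr1:40085843-40086142 on the plus strand, and the first of the 2 Il1r1 windows is chr1:40224830-40225129 on the plus strand.
Il1b: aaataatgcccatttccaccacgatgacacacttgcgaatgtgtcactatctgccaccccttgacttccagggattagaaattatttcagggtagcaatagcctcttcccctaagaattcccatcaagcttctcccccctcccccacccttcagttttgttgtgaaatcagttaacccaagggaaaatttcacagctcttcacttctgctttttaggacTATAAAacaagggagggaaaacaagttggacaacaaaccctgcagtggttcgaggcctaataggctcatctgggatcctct
Il1a: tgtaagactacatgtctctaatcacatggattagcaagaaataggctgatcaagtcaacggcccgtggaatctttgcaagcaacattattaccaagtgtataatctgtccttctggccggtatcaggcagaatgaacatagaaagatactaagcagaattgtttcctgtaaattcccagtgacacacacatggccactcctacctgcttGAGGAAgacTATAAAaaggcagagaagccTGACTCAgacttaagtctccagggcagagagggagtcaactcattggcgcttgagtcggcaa
Il1r2: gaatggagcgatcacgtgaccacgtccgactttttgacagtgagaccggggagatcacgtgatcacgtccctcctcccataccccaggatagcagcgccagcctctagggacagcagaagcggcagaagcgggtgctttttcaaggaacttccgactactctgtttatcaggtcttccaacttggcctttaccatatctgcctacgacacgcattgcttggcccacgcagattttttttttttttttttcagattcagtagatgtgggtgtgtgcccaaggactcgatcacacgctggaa
Il1r1: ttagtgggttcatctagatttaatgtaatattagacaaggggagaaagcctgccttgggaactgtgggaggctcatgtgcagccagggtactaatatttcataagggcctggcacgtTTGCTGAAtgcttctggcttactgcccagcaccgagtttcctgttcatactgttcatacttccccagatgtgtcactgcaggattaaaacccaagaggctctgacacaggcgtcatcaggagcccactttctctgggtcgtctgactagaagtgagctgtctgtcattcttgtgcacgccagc

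The motifs were searched on both strands. They were TATAAA of the TATA box, GAGGAA of the core bound by the myeloid factor PU.1, TTGCNNAA of C/EBP factors, GGGNNNNNCC of NF-kB and TGANTCA of AP-1. Il1b and Il1a both held a TATA box, starting at -31 in Il1b and -32 in Il1a, and 13.6% of 32851 RefSeq promoter windows held these letters. The Il1a window also held a PU.1 core at -41 and an AP-1 match at -12, which 28.3% and 7.81% of all windows held. No searched motif was found in the Il1r2 window. The Il1r1 window held a C/EBP match at -133, and 10.8% of all windows held one. Of the other members, the first Nlrp3 window held 3 PU.1 cores, at -220, -129 and -36, and the Pycard and Casp1 windows held 1 each. The NF-kB letters were in 50.8% of all windows. The matches are descriptions of sequence, and no binding was measured.

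The arrays shared a scale, with a 2% trimmed mean of 500.0 on each. Signals under 120.1, the median of all values pooled, were treated as a floor below which no level was read, and 52.5% of probe sets lay above it in granulocytes, against 48.7% to 49.9% on the other arrays. Actin and hybridization measures moved with the granulocyte array. The ratio of the 3′ to the 5′ actin probe sets was 5.75 in granulocytes, against 12.2 to 16.1 on the other arrays. The same ratio for Gapdh did not set granulocytes apart, at 12.4, against 17.8 (HPC), 14.9 (LT-HSC) and 12.4 (ST-HSC). The bacterial hybridization controls averaged 5659 in granulocytes, against 3653 to 4325 on the other arrays (geometric means). Scaling the arrays to these controls brought the smallest log2 difference of Nlrp3 in granulocytes to 1.89, against 2.52 as deposited. The other 4 calls held under that scaling.

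The labelled cell types were checked against markers. Of 10 granulocyte markers, 10 were above the floor in granulocytes with a summed signal of 426020. On the other arrays they summed to 611 (HPC), 22755 (LT-HSC) and 658 (ST-HSC), with 2, 6 and 2 of them above the floor. Of 10 stem and progenitor markers, 3 were above the floor in granulocytes, against 9 (HPC), 10 (LT-HSC) and 10 (ST-HSC). The LT-HSC array thus went against its lineage-negative gate, with granule transcripts such as Ltf at 2502. B-lineage transcripts were on both the HPC and the LT-HSC arrays, where the 8 measured markers summed to 7180 and 14346, against 678 in ST-HSC and 1755 in granulocytes. Vpreb1, of the pre-B cell receptor, was at 2532 in HPC and 4815 in LT-HSC, against 15.0 in ST-HSC and 28.4 in granulocytes. Each member count below that can be made without the LT-HSC array is also given so. Monocyte and macrophage markers, 13 measured, summed to 46287 in granulocytes, against 24161 (HPC), 2915 (LT-HSC) and 5672 (ST-HSC). Of these 13 genes, 11 were above the floor in granulocytes, against 11 (HPC), 9 (LT-HSC) and 10 (ST-HSC). Most of the granulocyte sum came from Cd14, at 26441, and the receptor Csf1r, at 13089 in granulocytes and 11928 in HPC. Of the other markers, Ly86 (552 against 4155), F13a1 (151 against 2111), Ccr2 (312 against 1337) and Cx3cr1 (34.4 against 311) were lower in granulocytes than in HPC. Klf4 (2321 against 1003), Cd68 (1640 against 750) and Adgre1 (1102 against 298) were higher in granulocytes. Cd163 (139 against 54.4), Maf (168 against 80.5), Vcam1 (219 against 238) and Mrc1 (117 against 128) had low signals on both. The 4 Ccr2 probe sets ranged from -0.34 to 1.67 in log2 difference for granulocytes against the mean of the other arrays. The median log2 difference of the list was 0.21 for granulocytes against the mean of the other arrays and 1.21 for HPC against the mean of the stem cell arrays. Monocytes also make interleukin 1, and the part of these markers in the granulocyte and HPC values was not tested.

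Granulocytes exceeded each other array by 4-fold or more for 4 of 9 members, and 2.86% of all 18193 genes were called in that direction. The member Il1r1 was at least 4-fold lower in granulocytes, and 5.34% of all genes were. Without the LT-HSC array the counts were again 4 and 1. The median log2 difference of the 9 members between granulocytes and the mean of the other arrays was 1.70, against 0.00 over all genes. As a yardstick of probe set disagreement, the SD of log2 differences between probe sets of a single gene was 0.91 to 0.94 for granulocytes against another array. It was 0.60 to 0.64 among the other 3 arrays, over 2874 genes. Only probe sets above the floor on all 4 arrays entered it. The yardstick holds no variation between cells, sorts, amplifications or arrays, so a difference beyond 2 SD is not a test result. In bulk RNA of this kind, fewer cells of a type and less RNA per cell cannot be told apart.

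**Figure D1:**
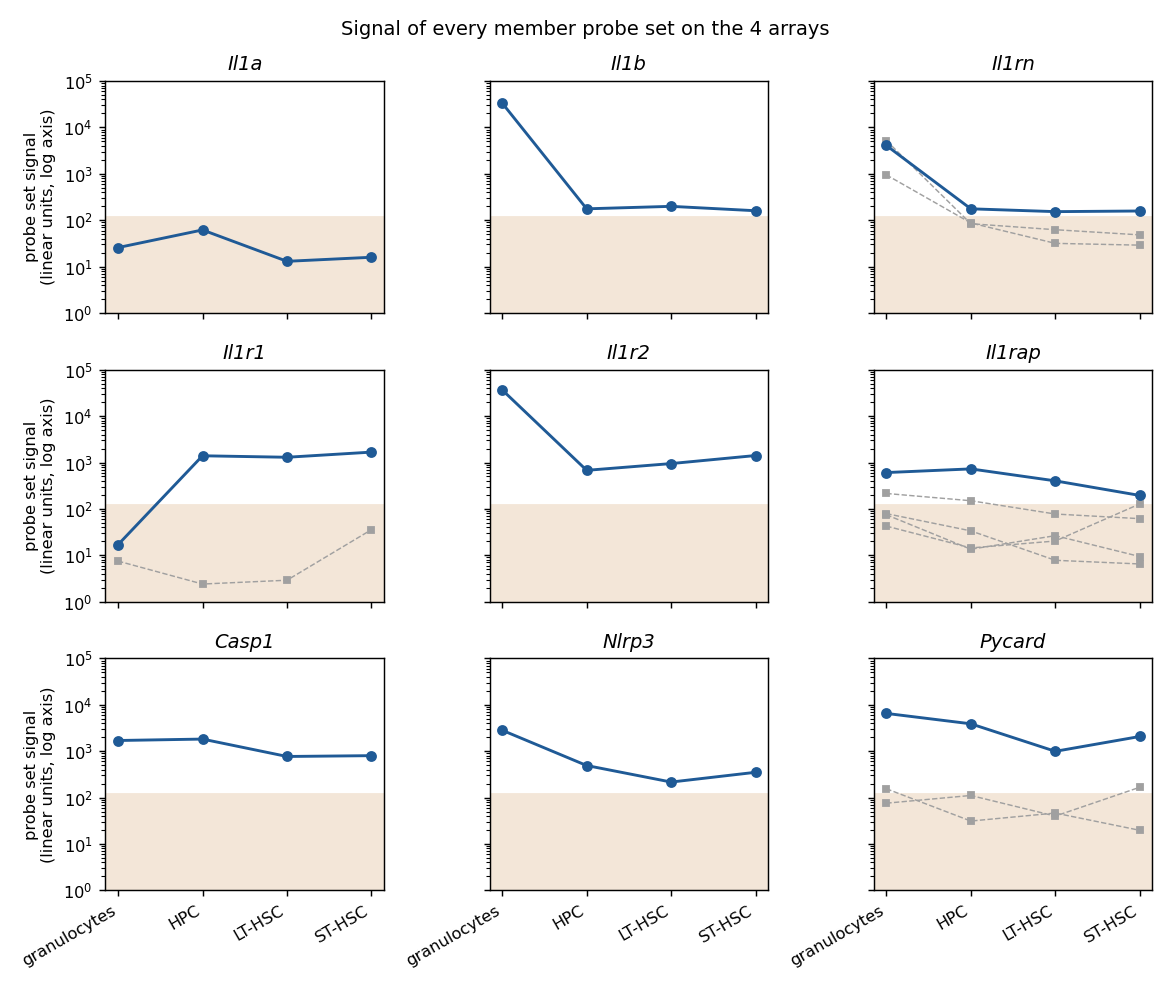
Signal of every probe set of the 9 members on the 4 arrays, on a log axis of linear intensity, with the shaded region marking values under the floor of 120.1. Solid blue lines are the probe sets that represent each gene, and grey dashed lines are the other probe sets. On the blue lines Il1b, Il1rn, Il1r2, Nlrp3 and, by a smaller margin, Pycard are highest in granulocytes. Il1r1 lies under the floor only in granulocytes, and Il1a lies under it on all 4 arrays.

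The ligands came first in size. Il1b had a signal of 33532 in granulocytes, against 176 (HPC), 199 (LT-HSC) and 160 (ST-HSC). It was 191-fold higher in granulocytes than in HPC, 169-fold than in LT-HSC and 210-fold than in ST-HSC. The granulocyte array was high and the other 3 lay just above the floor, where they differed from each other by at most 1.24-fold, within 2 SD of the probe set yardstick. Il1b was read by 1 probe set. Il1a had 25.7 in granulocytes, against 61.7 (HPC), 15.9 (ST-HSC) and a still lower value in LT-HSC. All 4 values were under the floor, so no difference was read for this ligand. Il1a and Il1b are next to each other on chromosome 2 in the RefSeq gene order.

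The granule transcripts on the LT-HSC array were set beside the 4 members called higher in granulocytes. The Il1b signal in LT-HSC was 0.592% of that in granulocytes, beside 0.524% in HPC and 0.476% in ST-HSC. On the same LT-HSC array Ltf, the iron-binding protein of secondary granules, was at 5.66% of its granulocyte signal, Camp, an antimicrobial peptide, at 5.07%, Ngp at 10.1% and S100a8, a cytosolic calcium-binding protein of neutrophils, at 11.9%. Other neutrophil genes, namely the chemokine receptor Cxcr2, the integrin chain Itgam and the granule proteases Mmp8 and Mmp9, were under the floor in LT-HSC, at 34.3, 7.90, 77.4 and 65.8, so no level was read for them there. Il1rn was at 3.74% in LT-HSC, close to 4.31% in HPC and 3.86% in ST-HSC. Il1r2 was at 2.58% in LT-HSC, between 1.85% in HPC and 3.85% in ST-HSC. Nlrp3 was at 7.64% in LT-HSC, below its 17.4% in HPC and 12.4% in ST-HSC. Ltf, Camp, Ngp and S100a8 were thus far above their HPC and ST-HSC signals on the LT-HSC array, and the 4 members were not. The LT-HSC signals of Il1b (199), Il1rn (153) and Nlrp3 (216) were near the floor, where a small added share is hard to read. The source of the granule transcripts was not tested.

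**Figure D2:**
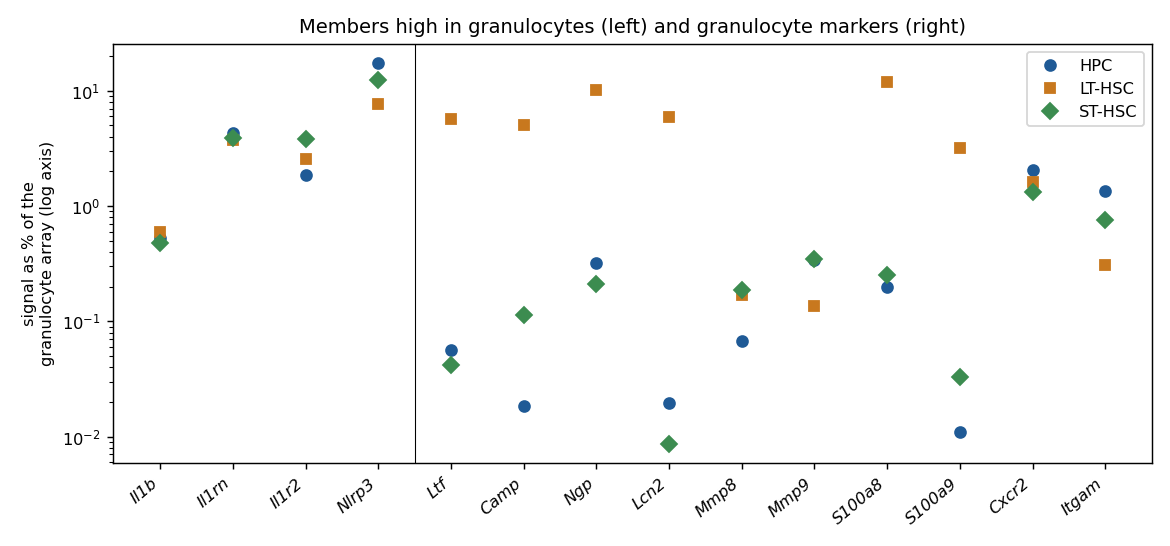
Signal on the HPC, LT-HSC and ST-HSC arrays as a percent of the granulocyte signal, on a log axis, for the 4 members called higher in granulocytes and the 10 granulocyte markers. Signals are plotted as deposited, also where under the floor; Ngp (10.1%) and S100a8 (11.9%) lie far above their other points in LT-HSC, while the 3 points of Il1b lie between 0.476% and 0.592%.

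Il1rn, which encodes the receptor antagonist, had 4089 in granulocytes, against 176 (HPC), 153 (LT-HSC) and 158 (ST-HSC) on the probe set with the highest mean. It was 23.2-fold, 26.7-fold and 25.9-fold higher in granulocytes than on the HPC, LT-HSC and ST-HSC arrays. Its other probe sets gave the same direction. The second read 5202 in granulocytes, against 84.0 (HPC), 62.4 (LT-HSC) and 48.3 (ST-HSC), at least 43.3-fold higher in granulocytes. The third read 949 in granulocytes, against 87.3 (HPC), 31.7 (LT-HSC) and 29.0 (ST-HSC), at least 7.90-fold higher. All 3 probe sets were thus high in granulocytes alone, with a size that depended on the probe set. The antagonist did not differ among the other 3 arrays by more than 0.21 on the log2 scale.

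The decoy receptor and the signalling receptor had opposite patterns. Il1r2 had 36764 in granulocytes, against 678 (HPC), 948 (LT-HSC) and 1414 (ST-HSC). It was 54.2-fold higher in granulocytes than in HPC, 38.8-fold than in LT-HSC and 26.0-fold than in ST-HSC. Unlike Il1b, the decoy receptor was well above the floor on all 4 arrays. Among the other 3, ST-HSC was highest and HPC lowest, a 2.08-fold difference that stayed within 2 SD of the yardstick (1.29 on the log2 scale).

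Il1r1, the signalling receptor, had 16.9 in granulocytes, against 1396 (HPC), 1297 (LT-HSC) and 1675 (ST-HSC). Granulocytes were at least 11.6-fold lower than HPC, at least 10.8-fold lower than LT-HSC and at least 13.9-fold lower than ST-HSC. The progenitor and stem cell arrays were high and close together, with differences of at most 0.37 on the log2 scale. A second Il1r1 probe set read 7.50 in granulocytes, against 2.40 (HPC), 2.90 (LT-HSC) and 35.7 (ST-HSC), all under the floor, so the pattern rests on 1 probe set. Taking the median of both probe sets brought the log2 difference to -1.72, which was no longer 4-fold.

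Il1rap, the accessory chain that the type I receptor needs to signal, had 607 in granulocytes, against 728 (HPC), 402 (LT-HSC) and 195 (ST-HSC). It was 1.20-fold lower in granulocytes than in HPC (log2 difference -0.26) and 3.10-fold higher than in ST-HSC, both within 2 SD. The order was HPC, granulocytes, LT-HSC and ST-HSC, and no neighbours in that order differed beyond the yardstick, while HPC over ST-HSC did at 3.72-fold. A second probe set read 215 in granulocytes, against 150 (HPC), 77.5 (LT-HSC) and 61.6 (ST-HSC), with both stem cell arrays under the floor and so not ordered. Of the other 3 probe sets, 2 were under the floor everywhere and 1 was above it only in ST-HSC, at 128. In no Il1rap probe set were granulocytes 4-fold away from every other array.

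Il1rap is on chromosome 16. Il1r2 and Il1r1 lie in a cluster on chromosome 1, in the RefSeq order Il1r2, Il1r1, Il1rl2, Il1rl1, Il18r1 and Il18rap. The smallest log2 differences of granulocytes against the other arrays along it were 4.70 for Il1r2, -3.43 for Il1r1, -0.91 for Il1rl2, 0.39 for Il18r1 and 2.29 for Il18rap, with Il1rl1 not analysed here. The values of Il1r1 and Il1rl2 are bounds, with granulocytes under the floor. The 2 Il1rl2 probe sets gave -1.78 and 0.42 for granulocytes against the mean of the other arrays, so they disagree in sign. The genes at both ends of the cluster were thus higher in granulocytes, and the next neighbour of Il1r2 was lower.

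**Figure D3:**
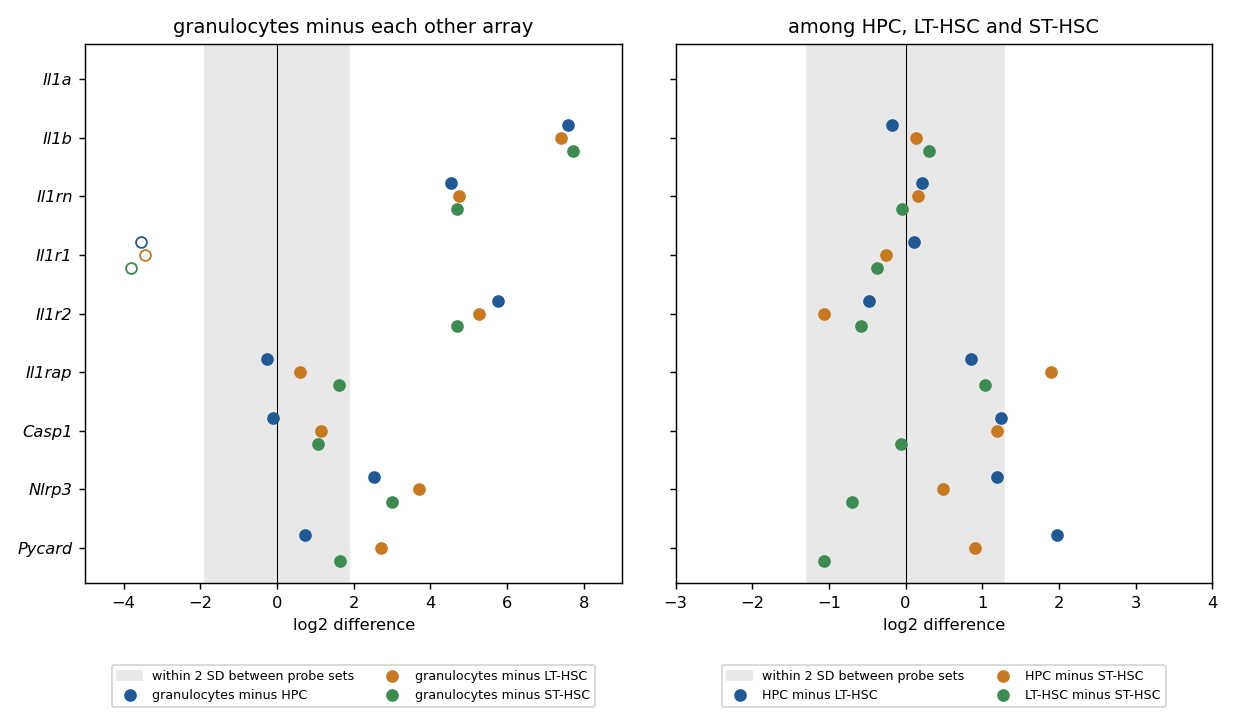
Log2 difference of each member between granulocytes and each other array (left) and among the other 3 arrays (right), with open circles for bounds where 1 side lay under the floor and a grey band for the widest 2 SD between probe sets of 1 gene in the panel. All points of Il1b, Il1rn, Il1r1, Il1r2 and Nlrp3 and the LT-HSC point of Pycard (2.72) lie outside the band on the left, Il1rap and Pycard reach beyond it on the right, and Casp1 lies inside the band although its HPC minus LT-HSC difference of 1.25 exceeds the 1.20 of that pair.

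Of the inflammasome genes, the sensor differed most. Nlrp3 had 2826 in granulocytes, against 491 (HPC), 216 (LT-HSC) and 351 (ST-HSC). It was 5.75-fold higher in granulocytes than in HPC, 13.1-fold than in LT-HSC and 8.05-fold than in ST-HSC, all beyond 2 SD. Granulocytes stood apart, and the other 3 arrays lay within 2.28-fold of each other, inside the yardstick.

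Pycard, which encodes the adaptor ASC, had 6520 in granulocytes, against 3892 (HPC), 993 (LT-HSC) and 2074 (ST-HSC). It was 1.68-fold higher in granulocytes than in HPC, 6.57-fold than in LT-HSC and 3.14-fold than in ST-HSC. Only the LT-HSC difference was beyond 2 SD. The order was granulocytes, HPC, ST-HSC and LT-HSC, with no neighbouring pair beyond the yardstick, and HPC was 3.92-fold higher than LT-HSC, which was beyond it. Of its other probe sets, 1 was above the floor only in ST-HSC (167) and 1 only in granulocytes (155), so the order rests on 1 probe set.

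Casp1, the protease that cuts the Il1b precursor, had 1699 in granulocytes, against 1824 (HPC), 769 (LT-HSC) and 801 (ST-HSC) on its only probe set. Granulocytes and HPC were 1.07-fold apart. Granulocytes were 2.21-fold higher than LT-HSC and 2.12-fold higher than ST-HSC, within 2 SD, and HPC was 2.37-fold higher than LT-HSC, just beyond it. The protease and the adaptor were thus present on every array, including those on which Il1b was near the floor.

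Among HPC, LT-HSC and ST-HSC no member reached the 4-fold call. HPC had 0 of 9 members called higher than both stem cell arrays and 0 called lower, and 0.275% and 0.346% of all genes were called in these directions. Without the LT-HSC array, HPC against ST-HSC also gave 0 and 0. LT-HSC had 0 members called higher than ST-HSC and 0 called lower, with 1.29% and 0.693% of all genes called. The median log2 difference of the members was 0.18 for HPC against the mean of the stem cell arrays and -0.06 for LT-HSC against ST-HSC.

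The rest of the pathway was read from 4 lists, and the fold of a listed gene is its smallest against the arrays compared. The counts below stand beside 2.86% of all genes called higher in granulocytes and 5.34% called lower. Of 14 measured other members of the interleukin 1 family, 2 were called higher in granulocytes and 0 lower, with a median log2 difference of 0.45. The count of lower genes is near the share of all genes. Il18rap, the accessory chain of the interleukin 18 receptor, had 4878 in granulocytes, against 994 (HPC), 985 (LT-HSC) and 986 (ST-HSC), and was 4.91-fold higher. Il1f9, the symbol used on the array for interleukin 36 gamma, had 2096 in granulocytes, against 222 (HPC), 78.7 (LT-HSC) and 78.9 (ST-HSC). It was 9.45-fold higher in granulocytes. Il18, the other classical substrate of caspase 1, had 685 in granulocytes, against 242 (HPC), 398 (LT-HSC) and 520 (ST-HSC), with no 4-fold difference between granulocytes and any other array.

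Of 26 measured signalling components downstream of the receptor, 0 were called higher in granulocytes and 1 lower, with a median of 0.20, near the shares of all genes. The gene was Mapk9, the stress kinase JNK2, with 105 in granulocytes, against 1332 (HPC), 1227 (LT-HSC) and 1324 (ST-HSC), at least 10.2-fold lower in granulocytes. Another of its 3 probe sets gave a log2 difference of -0.06, so its probe sets disagree. Myd88, the adaptor that the receptor recruits, had 4387 in granulocytes, against 2312 (HPC), 958 (LT-HSC) and 1711 (ST-HSC) and was not called. Irak3, an inhibitor of this signalling, had 2765 in granulocytes and 901 in HPC. It was 1374 in LT-HSC and 271 in ST-HSC, 5.07-fold higher in LT-HSC, the only gene of the list called between the stem cell arrays. Of all genes, 1.29% were called higher in LT-HSC than in ST-HSC.

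**Figure D4:**
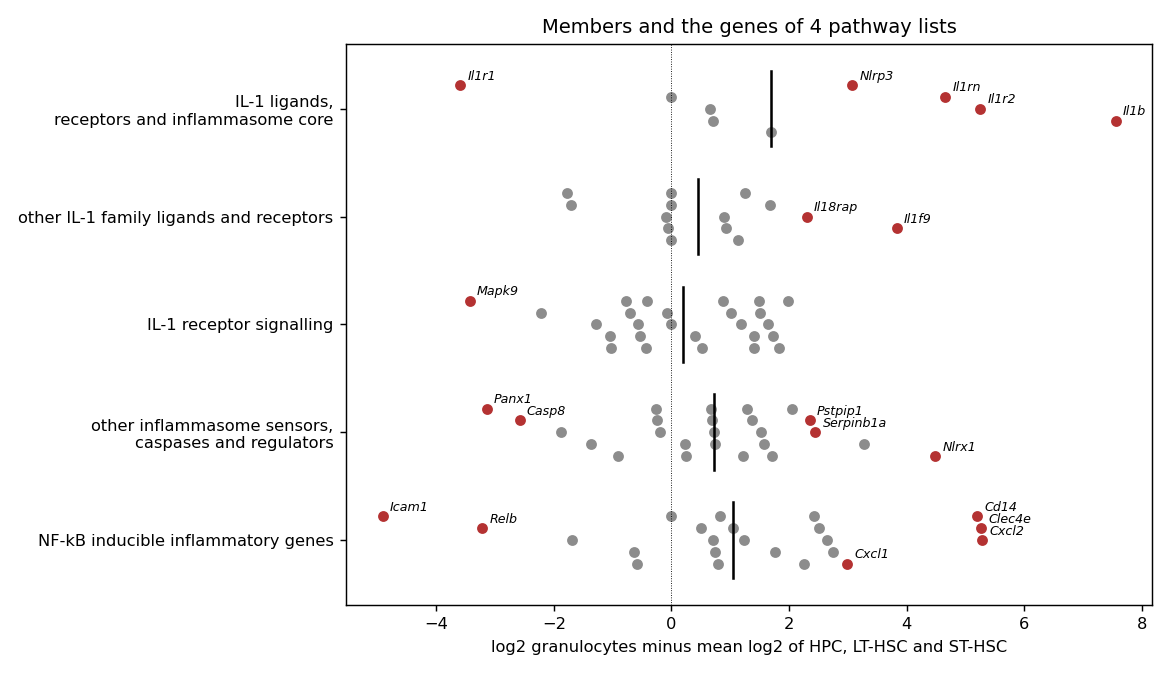
Log2 difference between granulocytes and the mean of the other 3 arrays for each measured gene of the member list and the 4 pathway lists, with the median of each list marked. The members spread widest around a median of 1.70, against 0.45, 0.20, 0.73 and 1.04 in the family, signalling, inflammasome and NF-kB lists.

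Among 25 other inflammasome genes, 3 were called higher in granulocytes and 2 lower, with a median of 0.73. In the lower direction this is near the share of all genes. Nlrx1, a mitochondrial relative of the NLR sensors, had 3511 in granulocytes, against 153 (HPC), 210 (LT-HSC) and 82.9 (ST-HSC), 16.7-fold higher. Pstpip1, which binds pyrin, had 2559 in granulocytes, against 408 (HPC), 541 (LT-HSC) and 573 (ST-HSC), 4.46-fold higher. Serpinb1a, an inhibitor of neutrophil proteases, had 13483 in granulocytes, against 3122 (HPC), 1808 (LT-HSC) and 2677 (ST-HSC), 4.32-fold higher. Casp8 and Panx1 went the other way. Casp8, an apoptotic caspase that can also cut the Il1b precursor, had 575 in granulocytes, against 3878 (HPC), 3734 (LT-HSC) and 2781 (ST-HSC), and was 4.84-fold lower in granulocytes. Panx1, a membrane channel that releases ATP, had 185 in granulocytes, against 2678 (HPC), 1215 (LT-HSC) and 1323 (ST-HSC), and was 6.57-fold lower. Gsdmd, the pore protein cut by caspase 1, had 1443 in granulocytes, against 664 (HPC), 560 (LT-HSC) and 640 (ST-HSC) and was not called.

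Of 23 measured genes that NF-kB induces in inflammation, 4 were called higher in granulocytes and 2 lower, with a median of 1.04. Here too the count of lower genes is near the share of all genes. The called chemokines, which attract neutrophils, were Cxcl2, with 34434 in granulocytes, against 540 (HPC), 554 (LT-HSC) and 2348 (ST-HSC) (14.7-fold higher), and Cxcl1, with 1299 in granulocytes, against 187 (HPC), 161 (LT-HSC) and 145 (ST-HSC) (6.94-fold higher). The other genes called higher were receptors. Cd14, the endotoxin co-receptor that also stands in the monocyte list, had 26441 in granulocytes, against 1768 (HPC), 482 (LT-HSC) and 438 (ST-HSC), 15.0-fold higher. Clec4e had 18375 in granulocytes, against 774 (HPC), 11.8 (LT-HSC) and 1155 (ST-HSC), 15.9-fold higher. The adhesion molecule Icam1 and the NF-kB subunit Relb were lower. Icam1 had 372 in granulocytes, against 11968 (HPC), 11962 (LT-HSC) and 9786 (ST-HSC), 26.3-fold lower in granulocytes, and Relb had 65.0 in granulocytes, against 1209 (HPC), 1949 (LT-HSC) and 597 (ST-HSC), at least 4.97-fold lower. Of the other chemokines in the list, Ccl3 had 14747 in granulocytes, against 9689 (HPC), 3965 (LT-HSC) and 6386 (ST-HSC), and Ccl4 had 3117 in granulocytes, against 3862 (HPC), 1335 (LT-HSC) and 2039 (ST-HSC), and neither was called.

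In the comparisons without granulocytes, 3 genes of the NF-kB list were called. Of the 23 measured genes, 1 was higher in HPC than both stem cell arrays, a direction in which 0.275% of all genes were called. The other 2 were lower in LT-HSC than in ST-HSC, where 0.693% of all genes were called. Ptgs2, an inducible enzyme of prostaglandin synthesis, had 527 in HPC, against 38.2 (LT-HSC) and 42.7 (ST-HSC), at least 4.39-fold higher in HPC. Cxcl2 was 4.24-fold lower in LT-HSC than in ST-HSC, and Clec4e was at least 9.62-fold lower. The LT-HSC array also carried more granule transcripts, and a link between these values was not tested.

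Genes whose pattern over the 4 arrays lay nearest to that of a member were found by the Euclidean distance of centred log2 signals among 8582 genes. The nearest to Il1b was Pilrb1, at a distance of 0.17, with 21590 in granulocytes, against 53.6 (HPC), 142 (LT-HSC) and 56.3 (ST-HSC), followed by Ceacam10 (0.22) and Clec4a2 (0.27). Il1rn was nearest to Slfn1 (0.15), Olfml2b (0.16) and Clec5a (0.18). These neighbours were near or under the floor on the other 3 arrays, where the floor makes patterns alike. Il1r1 was nearest to Gtpbp4 (0.08), with 385 in granulocytes, against 4297 (HPC), 4082 (LT-HSC) and 5586 (ST-HSC), then to Uck1 (0.13) and Eif2s3x (0.15). The granulocyte value of Il1r1 was itself set to the floor, so these distances hold for its bound and not for its signal of 16.9. Il1r2 had no close neighbour, with Bank1 at 0.43, Nt5e at 0.59 and Pilra at 0.62. Nlrp3 was nearest to Nin at 0.13, with 12057 in granulocytes, against 2076 (HPC), 948 (LT-HSC) and 1360 (ST-HSC), then to the small GTPase Rac2 (0.21) and Cldn15 (0.28). Pycard was nearest to the hexokinase Hk2 (0.33), Mrps21 (0.34) and Tm6sf1 (0.38). With 4 points per gene these distances describe likeness on these arrays only.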

How the data were processed

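Per the labels' protocols, RNA of sorted cells was amplified in 2 rounds and labelled with biotin through aminoallyl groups. Amplification of this kind starts at the 3′ end, which lowers signal far from it. The deposited values were probe set intensity on a linear scale, used as deposited; the summary software and detection calls were not given in the sources used here. After 64 controls were removed from 45101 probe sets, platform annotation gave 1 symbol for 34945 of the remaining 45037. Of these, 34741 were found in RefSeq by Entrez number.

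Values under the pooled median (120.1) were set to it before log2. A gene was its probe set with the highest mean. A call meant 4-fold in 1 direction against each array it was set against, over 3 comparisons. Where 1 side lay at the floor, the fold is a bound, written with at least. Each group was 1 array, so no test or interval was possible; precision is limited by the number of arrays.

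All members were named, and from the 4 pathway lists the genes called in granulocytes plus at most 3 a list in each other comparison. Myd88, Il18 and Gsdmd were added as examples after their values were seen. Ccl3 and Ccl4 were also named outside this rule. Of 9 marker lists, granulocyte, stem, monocyte and B-lineage markers are in the report. The others had median log2 differences in granulocytes of 0.00 (eosinophil, basophil and mast), 0.05 (T and NK, with Cd3d at 3890 in granulocytes and called higher), -0.36 (megakaryocyte and platelet), 0.17 (erythroid) and 0.66 (cumulus and stromal, with Inhba at 6566 in granulocytes). The members and lists were chosen with earlier results of these data known. Promoter windows came from RefSeq, in which 9 members had 13 windows. Tools were pandas 2.3.3, numpy 2.4.6 and matplotlib 3.10.9 under Python 3.11.15, and the procedure was tested on simulated data. Alternatives covered the floor, probe set choice, scaling, threshold and a filter on dim genes.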

Additional observations from a re-analysis of the deposited data

How the results depend on the processing

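The count of 4 members higher in granulocytes ranged from 3 to 4. It was 3 with scaling to the hybridization controls, where Nlrp3 had a log2 difference of 1.89, and 3 with probe sets without suffix, where Il1b had no probe set left. The count of 1 lower member (Il1r1) was 0 with the floor at the 75th percentile (-1.59) and 0 with the median over probe sets (-1.72), whose second probe set lies under the floor. With a 2-fold threshold, 1 member was higher in HPC (Casp1), where 2.12% of all genes were called. In LT-HSC against ST-HSC, 1 member was higher (Il1rap) and 1 lower (Pycard), beside 7.28% and 5.41% of all genes. The 4-fold threshold gave 0 members in these directions. A single gene in so short a list was not read as a departure from these shares. Of 258 recomputed member differences, 243 moved by less than 1 SD between probe sets and 15 moved by more. The sign changed only for 2 uncalled differences of LT-HSC against ST-HSC with scaling to the hybridization controls, Il1rn (-0.05 to 0.15) and Casp1 (-0.06 to 0.14). The smallest granulocyte difference of Il1b ranged from 6.28 to 7.71, of Il1rn from 2.98 to 5.09, of Il1r2 from 4.31 to 4.92 and of Il1r1 from -5.28 to -1.59. Leaving out the LT-HSC array and ranking probe sets without the floor were chosen after seeing the data and changed no member call. The share of all genes called lower in granulocytes was 5.34% as reported and 7.71% with scaling to the hybridization controls, and the share called higher was 2.86% and 1.96%. No paired analysis was possible because each cell type had 1 array.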
